A study of Mus musculus with 262 samples.

Results

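The genes described here are the carriers of 7 solute carrier families that move sugars, inositol, phosphate, sulfate, monocarboxylates and dicarboxylates: Slc2, Slc5, Slc13, Slc16, Slc20, Slc34 and Slc37. They were taken by symbol, leaving out pseudogene symbols, which gave 54 of the 47069 genes in the TPM tables (levels scaled to gene length and to a fixed total per sample). The 54 comprise 53 carriers and the antisense transcript Slc13a2os. Slc16 contributed 14 genes, Slc5 13, Slc2 12, Slc13 5, Slc37 4, Slc34 3 and Slc20 2. The count table of 24111 genes held all 54. They were followed through 262 samples of kidneys from male mice 2 months old. C57BL/6 mice gave 235 single cells, in which the authors recognised 87 type A and 23 type B cells of the intercalated class, 74 principal cells, 19 cells of the proximal tubule and 32 that were not epithelial. The same strain gave 2 bulk samples sorted with an antibody to c-Kit, 2 sorted with the lectin DBA, 11 hand-dissected collecting ducts of the cortex (CCD) and 8 thick ascending limbs of the cortex (cTAL). The strain labelled Atp6v1b1GFP gave 2 GFP-positive and 2 GFP-negative bulk samples; the sources used here do not give what drives GFP in it. The labels name no treatment.

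Proximal tubule cells recover filtered glucose, phosphate, sulfate and organic anions by coupling their entry to sodium at the luminal membrane, and let sugars and monocarboxylates leave across the basolateral side through facilitative carriers. Intercalated and principal cells of the collecting duct reabsorb little of these solutes and take up hexoses and monocarboxylates mainly as fuel, while inositol is an osmolyte of tubule cells that face concentrated fluid. Slc34a1 and Slc34a3 encode the sodium-phosphate cotransporters of the proximal brush border, Slc5a2 and Slc5a1 the sodium-glucose cotransporters, and Slc2a1, Slc2a2 and Slc2a4 facilitative glucose carriers, the last known for its response to insulin.

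Promoter windows of 5 carriers are shown because the results turn on them: Slc13a2, Slc34a1, Slc5a8 and Slc2a2 had their highest single-cell mean in proximal tubule cells, and Slc5a1 was the carrier that differed most between the dissected segments. Each window is the 250 bases before a RefSeq start (GRCm38.p6), read on the gene's strand. Capitals mark CG dinucleotides, the sites at which vertebrate DNA is methylated, which are scarce in the genome at large and dense in many promoters of widely active genes. CG reads the same on both strands. Its count describes letters and says nothing of methylation, which was not analysed here.
Slc13a2, chr11:78422235-78422484, minus strand: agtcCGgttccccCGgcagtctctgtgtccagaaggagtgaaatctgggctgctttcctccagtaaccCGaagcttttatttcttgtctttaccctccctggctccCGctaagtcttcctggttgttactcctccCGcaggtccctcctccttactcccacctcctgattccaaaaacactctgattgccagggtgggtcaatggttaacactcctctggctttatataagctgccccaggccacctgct
Slc34a1, chr13:55399398-55399647, plus strand: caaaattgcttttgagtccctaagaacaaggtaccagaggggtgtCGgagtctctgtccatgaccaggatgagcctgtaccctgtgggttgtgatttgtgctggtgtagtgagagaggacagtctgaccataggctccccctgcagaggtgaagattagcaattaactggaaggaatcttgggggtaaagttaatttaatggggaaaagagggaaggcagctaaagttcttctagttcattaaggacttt
Slc5a8, chr10:88885742-88885991, plus strand: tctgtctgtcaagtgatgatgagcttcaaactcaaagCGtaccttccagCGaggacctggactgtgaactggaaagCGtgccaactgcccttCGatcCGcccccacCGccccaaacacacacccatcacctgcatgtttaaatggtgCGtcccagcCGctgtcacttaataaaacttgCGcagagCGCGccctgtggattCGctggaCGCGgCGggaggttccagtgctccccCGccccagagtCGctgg
Slc2a2, chr3:28697653-28697902, plus strand: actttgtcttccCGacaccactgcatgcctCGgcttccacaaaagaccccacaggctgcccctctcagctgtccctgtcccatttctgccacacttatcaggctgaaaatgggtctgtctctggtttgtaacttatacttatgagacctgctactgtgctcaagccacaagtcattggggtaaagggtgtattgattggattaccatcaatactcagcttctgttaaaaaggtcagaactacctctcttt
Slc5a1, chr5:33103969-33104218, plus strand: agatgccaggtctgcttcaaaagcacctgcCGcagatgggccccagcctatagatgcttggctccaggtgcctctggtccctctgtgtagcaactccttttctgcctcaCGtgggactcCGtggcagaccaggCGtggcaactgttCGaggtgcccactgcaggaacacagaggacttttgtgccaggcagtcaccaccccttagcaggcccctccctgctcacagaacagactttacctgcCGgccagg
The Slc34a1 window held 1 CG and the Slc2a2 window 2, with 46.4% and 47.2% of bases being G or C. The Slc13a2 window held 5 (53.6% G or C), the Slc5a1 window 6 (60.0%) and the Slc5a8 window 17 (58.8%), so the 4 carriers with their highest mean in proximal cells had windows of unlike CG content. RefSeq promoters were at hand for 42 of the members, with 49 windows and a median of 8 CG, against a median of 6 over 32851 windows of all genes. At most 3 CG occurred in 13 of the 49 windows (26.5%) and in 12408 of all windows (37.8%). None of the 5 printed windows overlapped an annotated exon, and that of Slc34a1 lay inside the annotated gene (GENCODE, GRCm38).

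Read depth could be given for the GFP samples alone, with 35530885 to 40815091 reads in genes. In the TPM tables, 1092 to 4307 genes reached 1 TPM in a cell, 13949 to 14347 in a bulk sample and 7621 to 14004 in a tubule. The tubules with the fewest, m2_CCD2 with 7621 and m3_cTAL1 with 8094, are named beside some of the results they touch. The labels fitted their defining markers: Slc26a4 reached 1 TPM in 23 of 23 type B cells, Aqp2 in 74 of 74 principal cells and Lrp2 in 18 of 19 proximal tubule cells, while Slc4a1 did so in 77 of 87 type A cells. Markers of other types were also present. Miox reached 1 TPM in 30 of 87 type A cells at a mean of 51.8 TPM and in 15 of 19 proximal cells at a mean of 2144 TPM, and the summed proximal tubule markers stood at 3183 to 3356 TPM in the c-Kit samples and 4703 to 4953 TPM in the DBA samples. No label names an animal, so each single-cell type counts as 1 sample with no test, and p-values of the bulk comparisons measure only the spread between these samples, which may be technical.

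Proximal tubule cells held the widest set of carriers. A median of 10 carriers (range 1 to 14) reached 1 TPM in a proximal tubule cell, against medians of 4 for both intercalated types and 3 for principal and for non-epithelial cells. Their summed level averaged 1974 TPM in proximal cells and 370 to 561 TPM in the other types. A carrier was said to lead a type when its mean there was at least 10 TPM and the highest of the 5 types, and at least 25% of the cells reached 1 TPM. By that rule 13 carriers led in proximal cells, 2 in principal cells and 2 in type B cells, and 0 in type A or non-epithelial cells. Medians over cells in place of means left 5 proximal leaders, since many of the 13 were at 0 in most cells.

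**Figure D1:**
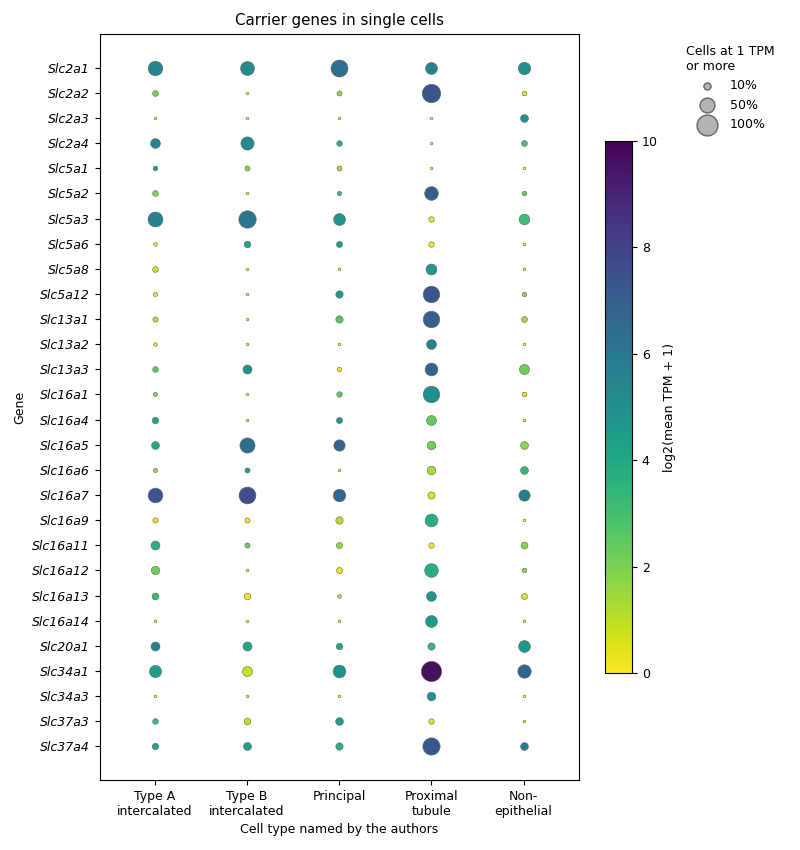
Levels of 28 carriers in the 5 single-cell types; dot area gives the percentage of cells at 1 TPM or more and colour the log2 of mean TPM plus 1. Large dark dots of Slc34a1, Slc2a2 and Slc37a4 stand in the proximal tubule column, while Slc2a1, Slc5a3 and Slc16a7 have dots in the principal, type A and type B columns.

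Phosphate carriers came first. Slc34a1, the main phosphate cotransporter of the brush border, had a mean of 791 TPM in proximal cells (median 602, range 0.11 to 1908) and reached 1 TPM in 18 of 19 cells (94.7%, Clopper-Pearson 95% interval 74.0% to 99.9%, which covers counting error only). It was also listed at 1 TPM or more in 29 of 87 type A, 5 of 23 type B, 27 of 74 principal and 13 of 32 non-epithelial cells, with means of 18.6, 0.738, 29.5 and 109 TPM. Part of that signal lay in cells that also held proximal markers. Cells of these types in which Miox and Fmo1 summed to over 100 TPM were left out, a split chosen after seeing the data. The mean of Slc34a1 was then 11.2 TPM in 77 type A cells, 21.3 TPM in 64 principal cells and 18.2 TPM in 29 non-epithelial cells. Most of the detections remained: it reached 1 TPM in 22 of 77 type A, 4 of 20 type B, 23 of 64 principal and 11 of 29 non-epithelial cells. In proximal cells the median of that marker sum was 888 TPM. Slc34a3, the second brush border phosphate carrier, reached 1 TPM in 3 proximal cells, all of which held Slc34a1, and in no other cell. Slc20a1, a type III phosphate carrier of many tissues, was spread over the types, with 15 of 87 type A and 10 of 32 non-epithelial cells at 1 TPM, and its type A mean of 46.8 TPM included 1 cell at 2113 TPM. Slc20a2, the other type III carrier, reached 1 TPM in at most 3 cells of any type.

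Glucose carriers of reabsorption formed the second group. Slc2a2, which passes glucose across the basolateral membrane, averaged 160 TPM in proximal cells and was detected (1 TPM or more) in 15 of 19 (78.9%, 54.4% to 93.9%), against at most 5 cells of any other type. Slc5a2, the sodium-glucose cotransporter of the early proximal tubule, averaged 137 TPM with a highest cell at 780 TPM and was detected in 8 of 19 (42.1%, 20.3% to 66.5%). All 8 of these cells also held Slc2a2. Slc37a4, which carries glucose phosphate into the endoplasmic reticulum for glucose release, was detected in 13 of 19 proximal cells at a mean of 157 TPM, and in 3 to 8 cells of the other types. Slc5a1, the high-affinity sodium-glucose cotransporter, was at 1 TPM in 0 of 19 proximal cells and 3 of 87 type A cells, 1 of them at 1075 TPM. Slc5a9 and Slc5a10, carriers of mannose and related sugars, were detected in 4 and 2 proximal cells, and Slc2a5, the fructose carrier, in 1.

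Carriers of organic anions and sulfate were the third proximal group. Slc5a12, a low-affinity sodium-lactate cotransporter, was detected in 12 of 19 proximal cells (63.2%, 38.4% to 83.7%) at a mean of 165 TPM. Slc16a1, a proton-coupled lactate carrier, was also detected in 12, of which 10 held Slc5a12, at a mean of 32.9 TPM. Slc13a1, the sodium-sulfate cotransporter, was detected in 12 cells at a mean of 124 TPM. The high-affinity sodium-monocarboxylate carrier Slc5a8 was detected in 5 cells, and none of the 5 held Slc5a2: 8 cells held Slc5a2 alone, 5 Slc5a8 alone and 6 neither. Slc13a3, a sodium-dicarboxylate carrier of the basolateral side, was detected in 7 cells with a mean of 114 TPM over all 19, 1 cell being at 1967 TPM, and Slc13a2, its luminal relative, in 4 with a mean of 46.1 TPM. Slc16a14, a carrier with no settled substrate, was detected in 6 proximal cells and in no cell of another type. Slc16a9, a carnitine carrier, and Slc16a12, a creatine carrier, were detected in 7 and 8 proximal cells at means of 12.4 and 12.9 TPM.

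**Figure D2:**
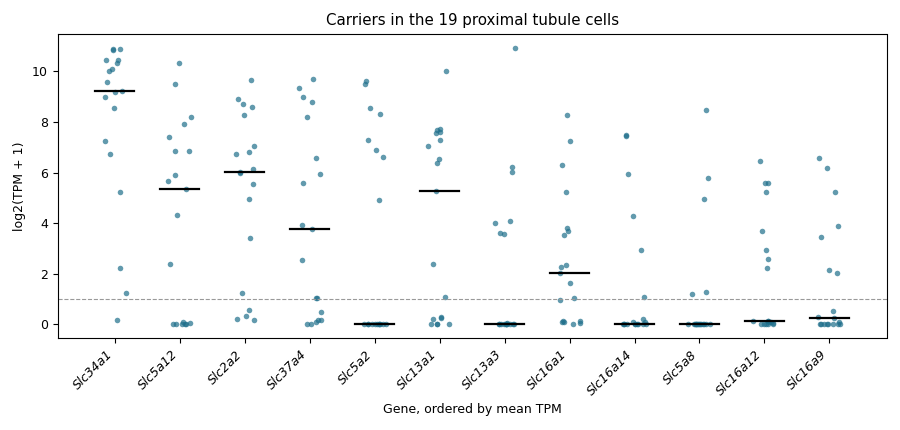
Each point is 1 of the 19 proximal tubule cells, for 12 of the 13 carriers that led there, on a log2(TPM + 1) scale with a bar at the median and a dashed line at 1 TPM. Slc34a1 lies above the line in 18 cells, Slc2a2 in 15 and Slc5a8 in 5.

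Collecting duct cells shared a short set of carriers, not all of it confined to them. Slc2a1, the widespread glucose carrier, was detected in 49 of 74 principal cells (66.2%, 54.3% to 76.8%) at a mean of 78.9 TPM, in 42 of 87 type A cells at 42.4 TPM and in 10 of 23 type B cells at 38.3 TPM. Slc2a4, the insulin-responsive glucose carrier, had the opposite order: it was detected in 9 of 23 type B cells (39.1%, 19.7% to 61.5%), 18 of 87 type A cells (20.7%, 12.7% to 30.7%) and 4 of 74 principal cells (5.41%, 1.49% to 13.3%). It was at 1 TPM in 0 of 19 proximal cells, with an upper limit of 17.6%. Slc2a1 averaged 44.6 TPM in proximal cells, above its type A and type B means. Slc2a1 and Slc16a7 were also among the highest carriers of non-epithelial cells. Among type A cells, 5 held both glucose carriers, 37 only Slc2a1, 13 only Slc2a4 and 32 neither.

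The inositol carrier Slc5a3 and the monocarboxylate carrier Slc16a7 had their highest means in type B cells. Slc5a3, the sodium-inositol cotransporter of osmolyte uptake, was detected in 16 of 23 type B cells (69.6%) at a mean of 66.3 TPM, 44 of 87 type A cells at 48.5 TPM, 23 of 74 principal cells at 28.0 TPM and 1 of 19 proximal cells. Slc16a7, a high-affinity pyruvate and lactate carrier, was detected in 15 of 23 type B cells (65.2%) at 200.2 TPM, 43 of 87 type A cells at 159 TPM, 26 of 74 principal cells at 107 TPM and 2 of 19 proximal cells at 0.457 TPM. Both were most frequent in type B and least in proximal cells. Slc16a5, a relative known to carry some diuretics, was detected in 12 of 23 type B cells (52.2%, 30.6% to 73.2%) at 87.1 TPM and in 21 of 74 principal cells at 106 TPM, a mean that included 1 cell at 4126 TPM. In type A cells it was detected in 11 of 87, at 14.0 TPM. Slc16a11, a pyruvate-type carrier linked to diabetes by human genetics, was detected in 15 of 87 type A cells (17.2%, 9.98% to 26.8%), 1 of 23 type B cells and 5 of 74 principal cells. Emb, the membrane partner that brings Slc16a7 to the cell surface, was detected in 19 of 23 type B, 37 of 87 type A, 19 of 74 principal and 2 of 19 proximal cells, and Bsg, the partner of Slc16a1, in 23 of 23, 73 of 87, 54 of 74 and 17 of 19.

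The remaining carriers were sparse in single cells. Slc2a3, a high-affinity glucose carrier, averaged 32.1 TPM in non-epithelial cells, where 4 of 32 cells held it. Slc16a4, Slc37a3 and Slc5a6, the vitamin carrier, were detected in 5, 9 and 5 principal cells at means of 27.7, 23.0 and 22.7 TPM, with highest cells at 1859, 931 and 1623 TPM. Slc2a8, Slc37a1, Slc2a9, Slc2a12, Slc16a10, Slc16a13 and Slc5a11 were detected in at most 9 cells of any type. Slc34a2 was detected in 2 principal cells only and Slc2a13 in 1 type B cell only.

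The c-Kit and DBA samples compared fractions rich in intercalated and in principal cell markers. The type A markers Slc4a1, Aqp6, Kit and Dmrt2 summed to 3059 to 3097 TPM in the c-Kit and 61.1 to 73.1 TPM in the DBA samples, and the principal cell markers to 2519 to 3392 and 22287 to 24841 TPM. In both, however, the carrier with the highest level was Slc34a1, which made up 38.9% of the summed carrier TPM in c-Kit and 48.6% in DBA samples. It stood at 1177 and 1055 TPM in c-Kit and 2185 and 2289 TPM in DBA samples. The log2 difference was -1.004 ± 0.07 (SE; limma with Benjamini-Hochberg adjustment over all genes, adjusted p = 0.000103; n = 2 and 2). In bulk samples, fewer cells of a type and less RNA per cell cannot be told apart. Of the 14341 genes tested, 44.3% were called at an adjusted p under 0.05, 16.1% higher and 28.1% lower in c-Kit samples. Of the 54 genes, 42 passed the minimum mean of 1 TPM and were tested, and 71.4% of these were called: 6 were higher, 24 lower and 12 not called, with a median log2 difference of -0.49 against -0.11 over all genes. Without DBA replicate 2, 15 carriers were lower and 3458 genes were called in place of 6348; without DBA replicate 1, 3600 genes were called.

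Higher in c-Kit samples were the 6 carriers Slc2a4, Slc16a11, Slc5a3, Slc16a7, Slc16a13 and Slc20a1. Slc2a4 stood at 209 and 193 TPM in c-Kit and 15.7 and 18.0 TPM in DBA samples, a log2 difference of 3.50 ± 0.09 (limma, adjusted p = 2.87e-06). Slc16a11 stood at 187 and 161 TPM against 20.6 and 17.8 TPM, a log2 difference of 3.11 ± 0.11 (limma, adjusted p = 6.15e-06). These 2 were the carriers with the largest rise. Slc16a7 was at 177 and 173 TPM against 94.8 and 96.6 TPM, a log2 difference of 0.86 ± 0.06 (limma, adjusted p = 7.94e-05), and Slc5a3 at 22.0 and 19.9 TPM against 9.76 and 8.11 TPM, a log2 difference of 1.15 ± 0.13 (limma, adjusted p = 0.000737). Slc16a13, the neighbour of Slc16a11 in the genome, was at 45.8 and 45.1 TPM against 27.2 and 24.9 TPM, a log2 difference of 0.78 ± 0.09 (limma, adjusted p = 0.000585). Slc20a1 was at 21.1 and 17.0 TPM against 10.0 and 12.7 TPM, a log2 difference of 0.70 ± 0.16 (limma, adjusted p = 0.0128), and lost its call in 4 of 12 alternatives, 3 of which left out c-Kit replicate 1, DBA replicate 1 or DBA replicate 2 (limma, adjusted p 0.0535 to 0.121). Emb rose with Slc16a7, from 20.1 and 23.2 TPM in DBA to 205 and 226 TPM in c-Kit samples (log2 difference 3.26).

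Of the 13 proximal leaders, 11 were lower in c-Kit samples. Slc5a2 stood at 232 and 192 TPM in c-Kit and 634 and 613 TPM in DBA samples, a log2 difference of -1.56 ± 0.09 (limma, adjusted p = 4.74e-05). Slc5a12 and Slc16a1, the lactate carriers, had log2 differences of -1.81 each and Slc16a14 of -2.01. The log2 differences of Slc2a2, Slc34a3, Slc13a1 and Slc37a4 were -1.28, -0.99, -0.99 and -0.80. Slc5a9, at 3.94 and 1.22 against 13.7 and 13.3 TPM, had a log2 difference of -2.13, which ran from -2.70 to -1.31 over the alternatives. The fructose carrier Slc2a5, the inositol carrier Slc5a11 and the intracellular hexose carrier Slc2a8 were lower too, with log2 differences of -1.17, -1.12 and -1.06. So was the sugar phosphate carrier Slc37a1, with a log2 difference of -1.05. Leaving out either DBA replicate ended the calls of Slc5a9, Slc5a11 and Slc37a1 (limma, adjusted p 0.0652 to 0.138). The proximal tubule markers fell with them, 6 of 8 being lower with a median log2 difference of -0.66, and 5 of 6 immune markers were lower too, summing to 4977 to 5075 TPM in c-Kit and 13096 to 13722 TPM in DBA samples; their part in these differences was not tested. Slc2a1 was lower in c-Kit samples as well, at 164 and 155 against 283 and 275 TPM (log2 difference -0.80 ± 0.06, limma adjusted p = 0.000115), and Slc16a5 had a log2 difference of -0.38 ± 0.08. Slc5a8 and Slc13a3 were the proximal leaders not called, with log2 differences of 0.42 (limma, adjusted p = 0.0588, and 0.0109 after quantile normalization) and 0.29 (limma, adjusted p = 0.209). Slc5a10, Slc5a1, Slc5a6, Slc2a9, Slc2a12, Slc16a6, Slc16a10 and Slc37a3 were also not called, nor was Slc13a2 (-0.44, limma adjusted p = 0.0507). Slc2a3, Slc16a9, Slc16a4, Slc16a12 and Slc20a2 were lower, with log2 differences of -1.38, -0.74, -0.53, -0.36 and -0.38. Of these, Slc16a4, Slc16a12 and Slc20a2 lost their calls without either DBA replicate (limma, adjusted p 0.0503 to 0.116), Slc16a12 also without c-Kit replicate 1 (0.0622) and Slc20a2 without c-Kit replicate 2 (0.0583). The call of Slc16a9 was lost without DBA replicate 2 (0.0634) and that of Slc16a5 without DBA replicate 1 (0.0603).

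**Figure D3:**
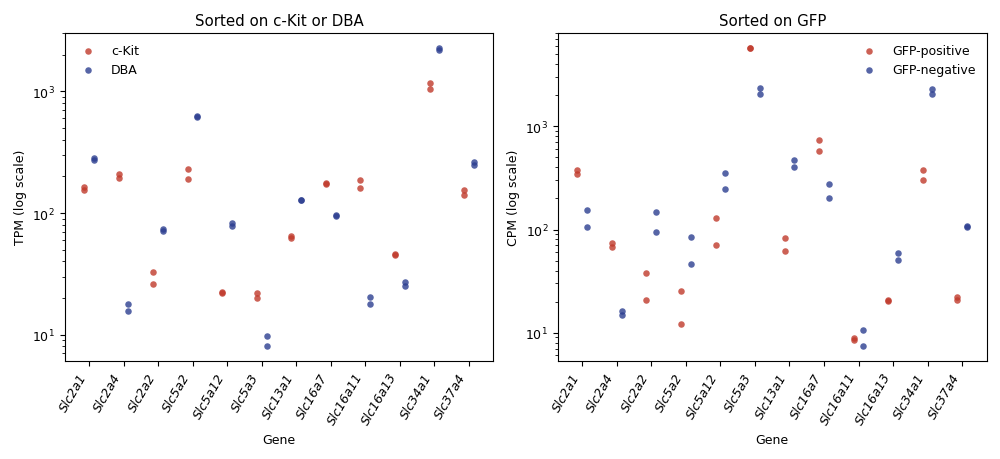
Each point is 1 sorted bulk sample, for 12 carriers on log axes; the left panel gives TPM in c-Kit and DBA samples and the right panel CPM (counts scaled to library size) in GFP-positive and GFP-negative samples. Slc2a4 lies at 193 and 209 TPM with c-Kit and at 15.7 and 18.0 TPM with DBA, and Slc34a1 at 2049 and 2311 CPM in the GFP-negative samples.

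The GFP samples were compared on counts, given as counts scaled to library size (CPM), which are not scaled to gene length and are compared here only between samples. GFP-positive samples held more intercalated markers (summed level 2834 to 3905 CPM against 210.2 to 248 CPM) and also more of the principal, distal convoluted tubule and connecting tubule markers. Thick limb markers summed to 9988 to 15453 CPM in GFP-positive and 7737 to 8695 CPM in GFP-negative samples. Of these 4 markers, 0 were called higher and 3 were not called. Cldn10 was called lower in GFP-positive samples (log2 difference -1.26, edgeR adjusted p = 0.000649). Proximal tubule markers were lower in GFP-positive samples (2563 to 4029 against 17132 to 19581 CPM), all 8 of them called, and 6 of 6 immune markers were lower (78.6 to 103 against 431 to 1208 CPM, with C1qb and Cd52 under 1 CPM in GFP-positive samples). The part of either list in the differences below was not tested. Of 15671 genes tested, 32.6% were called, 15.2% higher and 17.3% lower in GFP-positive samples. Of the 54 genes, 51 passed the filter on low counts (Slc2a7, Slc5a4b and Slc5a7 did not), and 68.6% of these were called: 7 were higher, 28 lower and 16 not called, with a median log2 difference of -1.36 against 0.02 over all genes.

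All 13 proximal leaders were lower in GFP-positive samples, with a median log2 difference of -2.15. Slc34a1 stood at 380 and 303 CPM in GFP-positive and 2049 and 2311 CPM in GFP-negative samples, a log2 difference of -2.78 ± 0.24 (edgeR quasi-likelihood test with Benjamini-Hochberg adjustment, adjusted p = 8.37e-05). Slc5a8 stood at 97.3 and 52.8 against 602 and 691 CPM, a log2 difference of -3.21 ± 0.30 (edgeR, adjusted p = 0.000122), and Slc13a1 at 83.4 and 61.4 against 472 and 401 CPM, a log2 difference of -2.68 ± 0.20 (edgeR, adjusted p = 5.71e-05). The groups of 2 samples did not overlap for any of these 3. Nor did they for carriers not called, such as Slc5a1, Slc2a12 and Slc34a2. The carriers of organic cargo Slc16a9 and Slc13a3 had log2 differences of -3.09 and -2.15, and the glucose carriers Slc37a4, Slc2a2 and Slc5a2 of -2.42, -2.13 and -1.85. The leaders Slc16a1, Slc5a12, Slc16a14 and Slc16a12 stood at -1.92, -1.67, -1.36 and -0.85. Outside the 13, the dicarboxylate carrier Slc13a2 had a log2 difference of -3.30 and the sugar and inositol carriers Slc5a10, Slc2a5, Slc5a11, Slc5a9 and Slc2a3 of -3.22, -3.02, -2.92, -2.70 and -2.94. Slc16a4, Slc16a6 and Slc16a13 stood at -2.82, -2.02 and -1.51, the phosphate carriers Slc34a3 and Slc20a1 at -2.09 and -0.87, and the vitamin carrier Slc5a6 at -1.14, a call lost without GFP-positive replicate 1 (edgeR, adjusted p = 0.0735). The antisense transcript Slc13a2os was called lower (-1.95), but shares 632 exon bases with Slc13a2 on the opposite strand, and the sources used here do not give whether the counting used strand. Its call was lost without GFP-negative replicate 2 (-1.65, edgeR adjusted p = 0.0529) or GFP-positive replicate 2 (-1.36, edgeR adjusted p = 0.0595). When limma was run on the authors' RPKM values, 15 of the genes described here were lower in place of 28. The leaders Slc16a1, Slc5a12, Slc16a14 and Slc16a12 lost their calls there (limma, adjusted p 0.0634 to 0.341). So did Slc34a3, Slc20a1, Slc16a6 and Slc5a9 (limma, adjusted p 0.0646 to 0.322).

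Higher in GFP-positive samples were 7 carriers. Slc16a5 stood at 201 and 177 CPM against 34.6 and 29.1 CPM, the largest rise, with a log2 difference of 2.49 ± 0.17 (edgeR, adjusted p = 4.7e-05). Slc2a4 was at 73.5 and 67.2 CPM against 16.1 and 14.8 CPM, a log2 difference of 2.10 ± 0.20 (edgeR, adjusted p = 0.000115), and Slc2a1 at 345 and 381 CPM against 156 and 106 CPM, a log2 difference of 1.40 ± 0.19 (edgeR, adjusted p = 0.000779). Slc2a1 and Slc2a4 thus differed in the same direction here. Slc16a7 stood at 731 and 574 CPM against 274 and 201 CPM (log2 difference 1.38 ± 0.20, edgeR adjusted p = 0.000972) and Slc5a3 at 5801 and 5746 CPM against 2344 and 2072 CPM (1.30 ± 0.21, edgeR adjusted p = 0.00215). Slc5a3 shares 159 of its 10913 exon bases (1.46%, GENCODE) with Mrps6 on the same strand. The sources used here do not give how reads in shared bases were counted. Slc2a9, the urate carrier, differed by 1.62 and lost its call with RPKM values (limma, adjusted p = 0.0719). Slc37a1, an endoplasmic reticulum sugar phosphate carrier, differed by 1.14 (edgeR, adjusted p = 0.0371) and lost its call in 4 of 10 alternatives, among them those that left out the first GFP-negative sample or either GFP-positive sample (edgeR, adjusted p 0.101 to 0.145). Slc16a11 (log2 difference -0.13, edgeR adjusted p = 0.782), Slc5a1 (0.40, edgeR adjusted p = 0.207), Slc16a10, Slc20a2, Slc2a8, Slc2a13 and Slc37a3 were not called. With the replicate number as a block, Slc34a2 (-0.63, edgeR adjusted p = 0.0371) and Slc2a12 (0.92, edgeR adjusted p = 0.0335) were called, against edgeR adjusted p-values of 0.0665 and 0.0605 without it. The count labels do not say that this number marks an experiment.

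Of the 42 carriers tested in both sorted comparisons, 25 (59.5%) were called in both, 20 of them (80.0%) in the same direction. Of 12784 genes tested in both, 2622 (20.5%) were called in both, 1847 of them (70.4%) in the same direction. Slc2a4, Slc5a3 and Slc16a7 were higher in GFP-positive and in c-Kit samples, and 17 carriers were lower in both. The other 5 went opposite ways. Slc2a1, Slc16a5 and Slc37a1 were higher in GFP-positive samples and lower in c-Kit than in DBA samples, and Slc16a13 and Slc20a1 were lower in GFP-positive and higher in c-Kit samples. The reference groups differ between the comparisons, DBA samples holding principal cell markers at 22287 to 24841 TPM and GFP-negative samples holding them at 171 to 225 CPM, and the 2 sets of differences were not tested against each other.

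**Figure D4:**
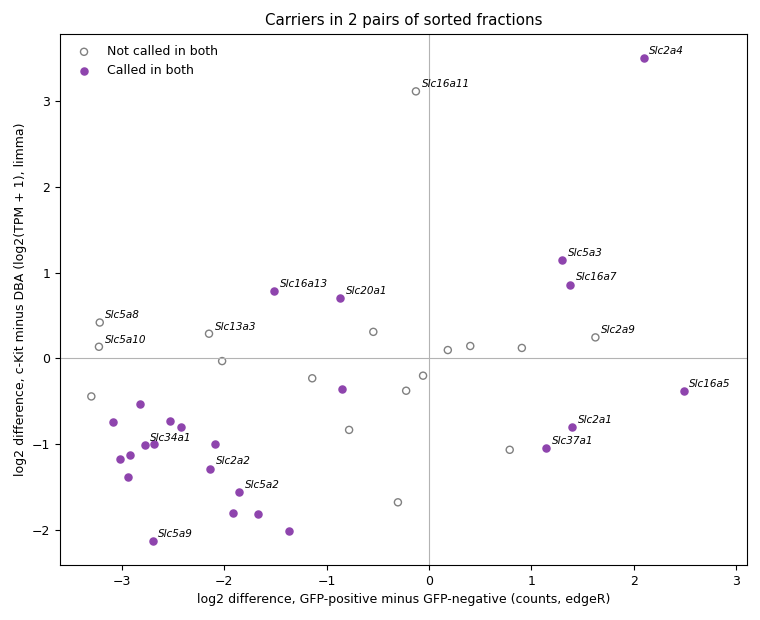
Each point is 1 of the 42 carriers tested in both sorted comparisons; the x axis is the log2 difference of GFP-positive minus GFP-negative (edgeR, counts) and the y axis that of c-Kit minus DBA (limma, log2 of TPM plus 1), filled where called in both. Slc2a4 sits at 2.10 and 3.50, Slc34a1 at -2.78 and -1.004, and Slc16a5 at 2.49 and -0.38.

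The microdissected tubules contrasted a collecting duct segment with the thick limb that lies upstream of it. Thick limb markers summed to 33089 to 53508 TPM in the 8 cTAL and 48.9 to 691 TPM in the 11 CCD, so the segments were separate. Of 13520 genes tested, 18.7% were called, 13.2% higher and 5.5% lower in CCD. Of the 54 genes, 34 passed the minimum mean of 1 TPM, and 29.4% of these were called: 3 were higher in CCD, 7 higher in cTAL and 24 not called. Leaving out any 1 of m4_CCD1, m5_CCD1, m7_CCD1, m1_cTAL1, m3_cTAL1 or m4_cTAL1 left 1 carrier higher in CCD. The median log2 difference (CCD minus cTAL) was 0.14 over the carriers and 0.31 over all genes; quantile normalization moved the latter to -0.03 and the split of calls from 1782 higher and 744 lower to 1221 and 1244. Tubule names carry a prefix from m1 to m7 that the sources used here do not explain, and tubules sharing a prefix may share an animal, in which case p-values over tubules are too small.

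Slc5a1 was the carrier that set the cTAL apart. It stood at 167 to 341 TPM in cTAL (median 269.6, 272 ± 64.7, SD, n = 8) and at 0.04 to 9.36 TPM in CCD (median 0.30, n = 11). The log2 difference was -7.17 ± 0.42 (SE; limma, adjusted p = 5.51e-12) with no overlap. Slc34a2, the sodium-phosphate cotransporter best known from lung and intestine, was at 13.5 to 63.9 TPM in cTAL (median 18.6) and at 0.00 to 0.60 TPM in CCD, a log2 difference of -4.34 ± 0.33 (limma, adjusted p = 4.04e-10). Slc5a3 was at 46.5 to 230.5 TPM in cTAL (median 110.0) and 5.09 to 14.3 TPM in CCD (median 7.11), a log2 difference of -3.49 ± 0.30 (limma, adjusted p = 5.55e-09). Slc2a13, the proton-coupled inositol carrier, averaged 11.8 TPM in cTAL and 0.99 TPM in CCD (log2 difference -2.57 ± 0.58, limma adjusted p = 0.00241). Its CCD mean included m2_CCD2 at 9.07 TPM. Its call was lost when tubules were averaged per prefix (limma, adjusted p = 0.0585). The third inositol carrier, Slc5a11, was under the minimum mean and not tested, at a mean of 0.948 TPM in CCD and 0.0075 TPM in cTAL. Slc16a12 averaged 50.6 TPM in cTAL and 4.38 TPM in CCD (-3.70 ± 0.52, limma adjusted p = 9.35e-06). Slc16a7 was at 188 to 483 TPM in cTAL (median 358) and 19.6 to 186 TPM in CCD (median 114), a log2 difference of -1.75 ± 0.32 (limma, adjusted p = 0.000254). The segments did not overlap for any of Slc5a1, Slc34a2, Slc5a3, Slc16a12 and Slc16a7. The share of all tested genes without overlap is not given here.

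Slc2a1 and Slc2a4 moved apart between the segments. Slc2a1 was at 263 to 611 TPM in CCD (median 359, 378 ± 95.3, SD, n = 11) and 91.9 to 296 TPM in cTAL (median 118, n = 8), a log2 difference of 1.51 ± 0.19 (limma, adjusted p = 2.6e-06); 1 cTAL, m3_cTAL1, exceeded the lowest CCD. Slc2a4 was at 0.40 to 120 TPM in CCD (median 67.7) and 87.4 to 432 TPM in cTAL (median 163), a log2 difference of -1.95 ± 0.61 (limma, adjusted p = 0.0284). That call was lost in 5 of 31 alternatives, at adjusted p-values (limma) of 0.0608 with a pseudocount of 0.1, 0.0926 without a filter and 0.0811 with tubules averaged per prefix. It was also lost without tubule m4_cTAL1 (-1.76, limma adjusted p = 0.063) and without the tubules whose proximal markers summed to over 500 TPM (-2.02, limma adjusted p = 0.0745), the latter chosen after seeing the data. The lowest CCD value came from m2_CCD2. Slc16a4 and Slc16a13 were called higher in CCD at 8.20 and 11.5 against 1.61 and 3.92 TPM (limma, adjusted p = 0.0317 and 0.0481), but lost the call in 14 and 21 of 30 alternatives.

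Of the proximal leaders tested in the tubules, Slc16a12 was the one called. Slc16a1 averaged 0.282 TPM in CCD and 4.83 TPM in cTAL (highest 19.5 TPM, in m3_cTAL1), a log2 difference of -1.41 (limma, adjusted p = 0.0581). It was called in 7 of 30 alternatives, among them the m prefix as a random block (-1.46, limma adjusted p = 0.0359) or as a fixed block (-1.64, 0.0286). Slc34a1 was at 3.71 to 330 TPM in CCD (median 27.9) and 0.07 to 93.9 TPM in cTAL (median 9.93), a log2 difference of 1.70 (limma, adjusted p = 0.173). The summed proximal markers ran from 16.2 to 1137 TPM in CCD, highest in m4_CCD1, m7_CCD1 and m7_CCD2, and from 0.21 to 916 TPM in cTAL. Slc16a5 was among the highest carriers of both segments at 194 ± 115 TPM in CCD and 302 ± 134 TPM in cTAL (SD), and the difference was not called (-1.16, limma adjusted p = 0.292). Its lowest CCD value, 0.85 TPM, came from m2_CCD2. In CCD the summed carrier TPM was led by Slc2a1 with 34.3%, then Slc16a5 with 17.6% and Slc16a7 with 10.3%. In cTAL it was led by Slc16a7 with 20.7%, then Slc16a5 with 17.9%, Slc5a1 with 16.1% and Slc2a4 with 11.3%.

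**Figure D5:**
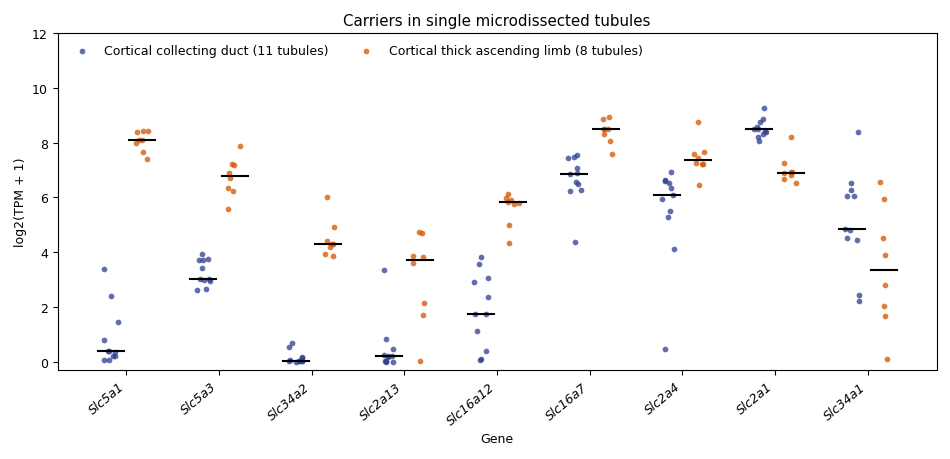
Each point is 1 tubule, 11 CCD and 8 cTAL, for 9 carriers on a log2(TPM + 1) scale, with bars at the medians. Slc5a1, Slc34a2, Slc5a3, Slc16a12 and Slc16a7 are higher in every cTAL than in every CCD, and Slc2a1 is higher in CCD apart from 1 cTAL that overlaps.

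Genes that work with these carriers were read from a list of 27. In the GFP comparison 6 were higher and 12 lower (66.7% called, against 32.6% of all genes). Hk1, which traps glucose, Emb and Ldhb were higher in GFP-positive samples by 1.72, 1.61 and 0.94, and Nfat5, the factor known for osmolyte carriers, by 0.90. The 5 listed osmolyte genes did not move together: 2 were higher, 1 lower (Slc6a6, -1.54) and 2 not called. The gluconeogenic and fructose enzymes Pck1 and Khk, the phosphate carrier scaffold Pdzk1 and the transcription factor Hnf4a were lower, with log2 differences of -2.97, -2.67, -2.48 and -2.22. In c-Kit samples 6 were higher and 14 lower (74.1% called, against 44.3% of all genes), Pdzk1ip1 with a log2 difference of -1.57. In the tubules 25 were tested, 6 were higher in CCD and 1 in cTAL (28.0% called, against 18.7% of all genes). Pdzk1ip1, a partner of Slc5a2, stood at 5914 to 9932 TPM in CCD and 713 to 1096 TPM in cTAL, a log2 difference of 3.09 ± 0.11 (limma, adjusted p = 3.84e-16), whereas Slc5a2 itself was at 0.00 to 5.38 TPM in CCD. Slc6a6, the taurine carrier, averaged 50.4 TPM in CCD and 2.81 TPM in cTAL (4.10 ± 0.48, limma adjusted p = 6.86e-07). Pth1r, the parathyroid hormone receptor, averaged 25.8 TPM in CCD and 365 TPM in cTAL (-4.91 ± 0.71, limma adjusted p = 1.38e-05). Emb was not called in the tubules, at means of 181 TPM in CCD and 191 TPM in cTAL (-0.08, limma adjusted p = 0.816), unlike Slc16a7.

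The other 12 genes stayed under a mean of 10 TPM or CPM in every group and are given by name alone: Slc2a6, Slc2a7, Slc2a10, Slc5a4a, Slc5a4b, Slc5a5, Slc5a7, Slc13a4, Slc13a5, Slc16a3, Slc16a8 and Slc37a2. Slc5a4a and Slc5a4b are near copies, so reads may have been split between them.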

How the data were processed

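Single cells, sorted bulk samples and single tubules were grouped by their titles, and cell types are those the authors gave. The authors deposited TPM tables (scaled to gene length and library) for cells, c-Kit and DBA samples and tubules, and the unit of the tubule table was read from its column sums. For the GFP samples the authors deposited raw read counts per gene and RPKM values, both on RefSeq mm10 per the file headers and names. The count was made with HTSeq-count, per the file names. STAR 2.5.1b, RSEM 1.2.31, Seurat and GRCm38.p5 appear in the submitters' processing notes with no role per file. Reads in no feature, 66.5% to 72.7% of those listed, stayed out of library sizes and tests. Since TPM values hold no read depth, they are given without intervals; the intervals of cell shares reflect counting error alone.

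The GFP counts entered edgeR 4.0.16 under R 4.3.3, with TMM factors, filterByExpr and the quasi-likelihood test. For TPM tables, limma 3.58.1 with a variance trend was fitted to log2(TPM + 1) for genes averaging 1 TPM or more; a log2 difference on this scale understates the change of low genes. Benjamini-Hochberg adjustment ran over all genes of a comparison, with calls at an adjusted p under 0.05. The fits were tested on simulated data with seeded changes. Shares of cells at 1 TPM or more carry exact Clopper-Pearson 95% intervals (scipy 1.17.1, Python 3.11.15). All cells were kept and no doublet caller was run, since the values are not molecule counts. Genes are named with values where their mean reached 10 TPM or CPM in some group. The members, the lists of partners and markers and the naming rule were chosen with earlier results of these data known.

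RPKM headers name a first and a second experiment, and the count columns carry the numbers 1 and 2. The replicate difference correlated between count and RPKM columns (r = 0.498 and 0.511 over 6052 genes). Samples with the same number deviated together weakly (r = 0.143 over 15671 genes). The number was read as an experiment, which the count labels do not state, and its block is given beside results it changed. Alternatives were DESeq2 1.42.0, other size factors, filters, pseudocounts and normalizations, RPKM, sample weights, blocks, and leaving out each sample. Promoters came from a RefSeq table (GRCm38.p6) and exon overlaps from GENCODE M21. The values of a few genes are not reported here; these genes stay in the fits and in the counts over lists.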

Additional observations from a re-analysis of the deposited data

Results flagged for a closer look

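In the 8 cTAL, 17 carriers were searched for a tubule far from the others, meaning a gap to the nearest tubule, as a share of the whole range, above Dixon's 95% critical value, which chance gives in about 1 in 20 groups. There were 4 such values. Slc2a1 stood at 296.06 TPM in m3_cTAL1, where the median of the 8 was 118 TPM. Slc34a2 stood at 63.88 TPM in the same tubule, against a median of 18.6 TPM; m3_cTAL1 also had the fewest genes at 1 TPM among the cTAL (8094). Slc2a4 stood at 432.49 TPM in m4_cTAL1, against a median of 163 TPM, and its difference between the segments was not called without that tubule. Slc16a11 stood at 100.61 TPM in m2_cTAL1, against a median of 30.3 TPM. The part of the number of genes read in a tubule in these values was not tested.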

How the results depend on the processing

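No carrier called in any of the 3 comparisons changed direction under the alternatives run. The call was kept under every alternative in which the gene was tested by 21 of 35 genes for GFP (Slc13a2os being among the 35), 19 of 30 for c-Kit and 6 of 10 for the tubules. Some genes were not tested under every alternative. Carriers leading a single-cell type changed from 13 to 5 for proximal cells and from 2 to 0 for principal cells with medians. With means of log2(TPM + 1), type B had 4, principal 1 and non-epithelial 1. Type A had 2 with detection at 0.1 TPM, and principal 1 with detection at 10 TPM. With limma on RPKM, 1639 genes were called for GFP in place of 5101, and 15 of the genes described here were lower in place of 28. For c-Kit, leaving out 1 replicate gave 3458 to 5701 genes called in place of 6348 and 15 to 23 carriers lower in place of 24; quantile normalization moved the median of all genes from -0.11 to 0.02 and the split of calls from 2315 higher and 4033 lower to 3055 and 3072. For the tubules, sample weights gave 4401 genes called in place of 2526, and 8 carriers higher in CCD in place of 3. That number was 1 with a pseudocount of 0.1, without a filter, with a mean of at least 10 TPM, with quantile normalization, with the mean per m number and without the 4 tubules whose proximal markers summed to over 500 TPM, and 1 to 4 when 1 tubule was left out. The cause of these changes was not tested. With the replicate block, 5897 genes were called for GFP. For c-Kit and DBA, samples with the same number shared only that number (r = 0.0264), and the replicate block gave 6271 genes. The planned block by the tubules' title numbers was not run, because the columns do not carry those numbers; with the m number as a block, chosen after seeing the data, 2588 genes were called (fixed) and 2763 (random). Deviations of CCD and cTAL with the same m number correlated at 0.0154 to 0.159. The TPM tables hold no read depth, so the counting error behind their low values is unknown.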

Other observations

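Some carriers that were near 0 in the c-Kit and DBA samples were read in the GFP samples. Slc34a2 stood at 0.35 to 0.99 TPM in the 4 c-Kit and DBA samples, and at 43.1 and 40.8 CPM in GFP-negative and 34.1 and 24.4 CPM in GFP-positive samples. Slc2a13 stood at 0.25 to 0.94 TPM and at 24.5 to 38.3 CPM. Both were higher in cTAL than in CCD, and thick limb markers summed to 654 to 1094 TPM in c-Kit, 706 to 839 TPM in DBA and 7737 to 15453 CPM in the GFP samples; their part in these levels was not tested, and the tables were normalized separately.

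The level of Slc5a3 differed widely between tables that were normalized separately. The authors' RPKM values were 455 and 453 in GFP-positive samples, whereas TPM values were 8.11 to 22.0 in the c-Kit and DBA samples and 46.5 to 230.5 in cTAL. The genes of Slc16a11 (chr11:70212752-70216417, plus strand) and Slc16a13 (chr11:70216789-70221064, minus strand) lie next to each other on GRCm38, and Slc2a4 (chr11:69942539-69948188, minus strand) lies on the same chromosome. All 3 were higher in c-Kit than in DBA samples, while in GFP-positive samples Slc2a4 was higher, Slc16a13 lower and Slc16a11 not called.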
